A study of Mus musculus with 6 samples.

Results

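The genes described here are 10 genes used as markers of brown and beige fat and of its heat production: Ucp1, Ppargc1a, Prdm16, Dio2, Elovl3, Kcnk3, Otop1, Tbx1, Cox7a1 and Cox8b. They were chosen by name and looked up by symbol in the array's annotation, which placed all 10 on the array with 21 probe sets among 18193 genes measured. A probe set is a group of short oligonucleotides that reads one transcript. Where a gene had several, the one with the highest mean over the 6 arrays was its main value, and every other one is given beside it. Values are log2 intensities, so a difference of 1 is a doubling of signal.

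White adipose tissue RNA was taken from 3 wild-type mice and 3 KSR2-/- mice, 1 Affymetrix array per mouse. KSR2, kinase suppressor of Ras 2, holds the RAF, MEK and ERK kinases together as a scaffold. The labels give every mouse as C57Bl6, female and 6 months of age. They do not give the fat depot, the part of Ksr2 that was removed, or the tissues in which it was removed. The single Ksr2 probe set read 4.42 ± 0.35 (SD, n = 3) in wild type and 4.34 ± 0.12 (SD, n = 3) in KSR2-/- tissue. Whether it lies inside the deleted part is not known, so it checks no label. The mice are numbered here 1 to 3 within each genotype, and the numbers pair nothing.

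Sex-linked transcripts went against the sex label on 4 of the 6 arrays. Xist, the RNA that silences one X chromosome in females, read 4.82, 4.47 and 10.10 on wild-type arrays 1, 2 and 3 and 5.06, 4.35 and 9.86 on KSR2-/- arrays 1, 2 and 3. The Y-linked gene Eif2s3y read 7.89, 9.02 and 2.09 in wild type and 8.47, 9.01 and 2.65 in KSR2-/-. Y-linked Kdm5d and Uty followed the same order. Wild-type mice 1 and 2 and KSR2-/- mice 1 and 2 also carry a higher series of animal numbers in their titles, while mouse 3 of each genotype carries a lower one. The transcripts therefore separate the series, which holds equal numbers of each genotype on either side. Sex and whatever else differed between the series cannot be told apart, and results are given within the series where they bear on it. The Gapdh probe sets at the 3′ and 5′ ends of the transcript, a measure of RNA integrity, differed by 4.18 on wild-type array 3 and by 0.07 to 1.46 on the other arrays.

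Brown and beige adipocytes burn fuel to make heat. Noradrenaline raises cAMP in the cell, PGC-1α (Ppargc1a) then drives mitochondrial genes, and UCP1 lets protons leak across the inner mitochondrial membrane so that respiration yields heat and not ATP. White fat stores lipid and carries little of this program, except where beige cells arise in it.

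The bases just upstream of the transcription start are shown for 5 genes, because Ucp1 and Dio2 are textbook targets of cAMP signalling and Ppargc1a, Otop1 and Cox8b had the most separated genotypes among the genes with a window. Sequences are from RefSeq (GRCm38.p6), each the 250 bases before the start, written 5′ to 3′ on the strand of the gene. Windows were found for 8 of the 10 genes, not for Elovl3 and Kcnk3. Capitals mark matches on either strand to AGGTCA, the hexamer bound by many nuclear receptors, to TGACGTCA, the palindromic cAMP response element, or to its part TGACG, which lies within it.
Ucp1, chr8:83290098-83290347, plus strand: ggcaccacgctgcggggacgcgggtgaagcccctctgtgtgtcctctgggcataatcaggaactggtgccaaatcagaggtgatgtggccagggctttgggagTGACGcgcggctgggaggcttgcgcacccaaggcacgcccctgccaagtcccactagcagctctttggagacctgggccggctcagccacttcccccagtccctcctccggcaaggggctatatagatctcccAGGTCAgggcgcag
Ppargc1a, chr5:51567726-51567975, minus strand: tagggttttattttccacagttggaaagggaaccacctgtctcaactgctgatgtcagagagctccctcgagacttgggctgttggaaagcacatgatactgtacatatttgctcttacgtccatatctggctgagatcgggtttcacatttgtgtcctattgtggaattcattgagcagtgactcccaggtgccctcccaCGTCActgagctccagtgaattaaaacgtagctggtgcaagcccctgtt
Dio2, chr12:90739039-90739288, minus strand: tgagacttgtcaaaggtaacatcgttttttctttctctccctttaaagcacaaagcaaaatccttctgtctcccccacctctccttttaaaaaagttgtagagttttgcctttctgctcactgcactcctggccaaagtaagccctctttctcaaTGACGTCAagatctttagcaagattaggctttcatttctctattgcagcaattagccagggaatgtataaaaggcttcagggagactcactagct
Otop1, chr5:38277154-38277403, plus strand: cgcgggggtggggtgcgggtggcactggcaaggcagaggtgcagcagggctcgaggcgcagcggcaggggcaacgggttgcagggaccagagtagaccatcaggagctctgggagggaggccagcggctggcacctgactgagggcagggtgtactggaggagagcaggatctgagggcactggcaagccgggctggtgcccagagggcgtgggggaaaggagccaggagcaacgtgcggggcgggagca
Cox8b, chr7:140900447-140900696, minus strand: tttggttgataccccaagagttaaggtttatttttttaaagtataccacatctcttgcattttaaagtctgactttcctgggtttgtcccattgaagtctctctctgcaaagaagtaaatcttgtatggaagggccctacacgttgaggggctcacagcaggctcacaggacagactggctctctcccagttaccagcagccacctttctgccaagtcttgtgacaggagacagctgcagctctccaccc
The Ucp1 window held AGGTCA at 14 to 9 bases and TGACG at 147 to 143 bases before the start. The Ppargc1a window held TGACG on the opposite strand, at 49 to 45 bases before the start. The Dio2 window held the full TGACGTCA at 95 to 88 bases before the start. Otop1 and Cox8b held none of these letters, nor did Cox7a1 and Prdm16, and a Tbx1 window held TGACG at 14 to 10 bases before the start. Over 32851 RefSeq windows of this length, 14.0% held AGGTCA, 1.55% held TGACGTCA and 17.8% held TGACG. The longer TCAAGGTCA, a motif of estrogen-related receptors, was in 0.387% of them and in none of the 8 genes. These matches describe letters and not binding.

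Across the 10 genes, Ppargc1a, Cox8b and Tbx1 were lower and Otop1 was higher on every KSR2-/- array than on any wild-type array, while the other 6 overlapped between genotypes. The 3 lower genes stand beside 8.56% of all genes with that separation, and the 1 higher gene beside 7.72%, or 16.3% in both directions. Of the 10, 7 had a lower and 3 a higher mean in KSR2-/- tissue, and the median difference was -0.18 against -0.04 over all genes. None passed limma's moderated test at an adjusted p under 0.05, which 1 gene in the whole table did (0.0055% of genes). At an unadjusted p under 0.05, 4 of the 10 were past the threshold, beside 12.1% of all genes. The expression of these genes was mostly low on the array scale, with 7 of the 10 means below 5.96, the median over gene means. Without KSR2-/- array 3, Ppargc1a and Otop1 passed the adjusted threshold, beside 4.49% of all genes. That fit sets KSR2-/- mice of the higher series alone against wild-type mice of both series. In the 4 mice of the higher series alone, the same 2 genes passed, beside 2.68% of all genes.

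**Figure D1:**
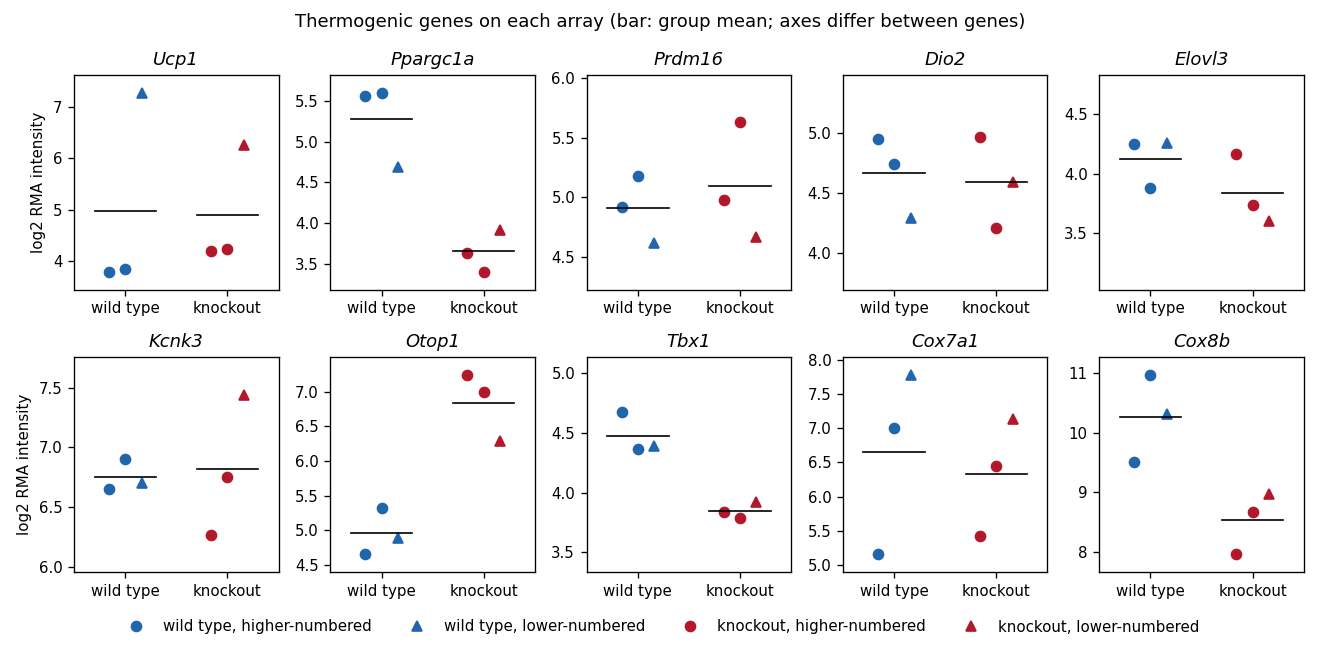
Log2 intensity of the 10 thermogenic genes, one point per array (triangles are the lower series) and a bar at each genotype mean. The axes differ between genes. Ppargc1a, Tbx1 and Cox8b lie lower and Otop1 higher in the 3 KSR2-/- arrays with no overlap, and Ucp1 reaches its highest values, 7.27 and 6.25, in mouse 3 of each genotype.

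Ucp1 encodes uncoupling protein 1, the proton carrier that defines brown and beige cells. Its single probe set read 3.79, 3.84 and 7.27 on wild-type arrays 1, 2 and 3. In KSR2-/- tissue it read 4.20, 4.24 and 6.25. Mouse 3 of each genotype stood well above the others, and the genotypes overlapped. The means were 4.97 ± 1.99 (SD, n = 3) and 4.89 ± 1.17 (SD, n = 3), a difference of -0.07 (SE 1.01, limma adjusted p = 0.992). The median standard error over all genes was 0.22. KSR2-/- minus wild type was 0.40 in the higher series and -1.02 between the pair of mice in the lower series. The genotype by series interaction was -1.42 (limma adjusted p = 0.505).

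Between the series Ucp1 differed more than between genotypes. In a fit with genotype and series, its mean was 6.76 in the lower and 4.02 in the higher series, a difference of 2.74 (SE 0.32, limma adjusted p = 0.0801). It ranked 22 of 18193 genes by the p of that term, which 5 genes (0.0275%) passed after adjustment, namely Xist, Uty, Kdm5d, Eif2s3y and Wfdc2. Of the 10 thermogenic genes, only Ucp1 and Cox7a1 read higher on both lower-series arrays than on the other 4, beside 9.88% of all genes. This comparison was added after the Y-linked values were seen.

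Some marker genes of other tissues also read high on lower-series arrays, in patterns that differed between tissues. The mean log2 level of 9 mammary epithelium genes was 4.34, 4.39 and 6.02 in wild type and 4.11, 4.21 and 5.23 in KSR2-/- tissue. On both lower-series arrays 5 of the 9 were above the other 4 arrays, beside 9.88% of all genes. Keratin gene Krt8 read 6.20, 6.53 and 9.23 in wild type and 6.02, 6.81 and 8.99 in KSR2-/-. The milk protein gene Csn3 read 3.93, 3.68 and 8.74 in wild type and 3.25, 3.09 and 6.17 in KSR2-/-. The mean of 16 skeletal muscle genes was 4.70, 5.37 and 7.12 in wild type and 5.14, 5.15 and 5.48 in KSR2-/-. Of the 16, 14 were highest on wild-type array 3, beside 3554 of all 18193 genes. Only 6 of the 16 were above the other arrays on both lower-series arrays. Mesothelium genes were above the other arrays on both lower-series arrays in 5 of 6 cases. Their mean was 7.06, 7.19 and 7.77 in wild type and 6.79, 7.15 and 8.76 in KSR2-/-, highest on KSR2-/- array 3. The part of these tissues in the Ucp1 values was not tested, nor was that of sex or RNA integrity. Zic1, a transcription factor gene of classical brown fat, read 2.15 to 2.56 on all 6 arrays. Lhx8, which is with Zic1 on a list of 12 brown adipocyte markers, read 4.48 to 5.84. Of that list 11 were measured, 9 with a lower and 2 with a higher KSR2-/- mean. It shares genes with the 10 described here. In bulk tissue, fewer cells of a type and less RNA per cell cannot be told apart.

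**Figure D2:**
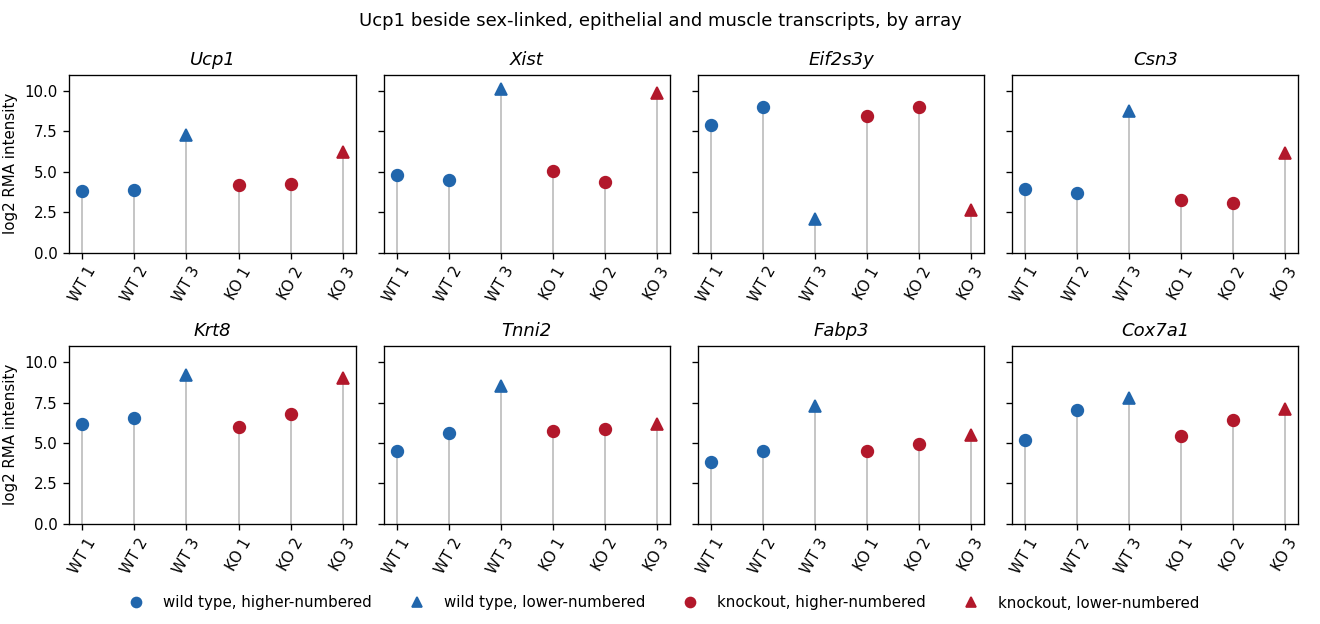
Log2 intensity of Ucp1, Cox7a1, sex-linked Xist and Eif2s3y, and epithelial and muscle marker genes on each of the 6 arrays, coloured by genotype, with triangles for the lower series of animal numbers. Ucp1 is at 7.27 and 6.25 on the lower-series arrays and at 3.79 to 4.24 on the other 4.

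Ppargc1a encodes the coactivator PGC-1α, which turns on mitochondrial and thermogenic genes. Its main probe set read 5.57, 5.61 and 4.68 in wild type. On KSR2-/- arrays it read 3.63, 3.40 and 3.92. All 3 KSR2-/- values lay below all 3 wild-type values, and mouse 3 of each genotype lay nearest to the other group. The means were 5.29 ± 0.52 and 3.65 ± 0.26 (SD, n = 3 each), so KSR2-/- was lower by 1.64 on the log2 scale (SE 0.29), with a limma adjusted p = 0.193 and an unadjusted p = 0.000706. With log2(value + 16), which gives less weight to low readings, the difference was -0.96 (limma adjusted p = 0.303). The difference was -2.07 in the higher series and -0.77 in the lower pair. Its interaction with the series was 1.30 (limma adjusted p = 0.602). Without KSR2-/- array 3 the limma adjusted p was 0.0366, and over all leave-one-out fits it ran from 0.0366 to 0.704.

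The gene has 5 probe sets, and KSR2-/- had the lower mean on all of them. The 4 others differed by -1.06, -1.03, -1.33 and -0.71. On 4 of the 5, every KSR2-/- array lay below every wild-type array, and on the fifth KSR2-/- array 3 at 3.00 lay above wild-type array 3 at 2.81. Probe sets of one gene read the same RNA samples and are not separate replicates.

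**Figure D3:**
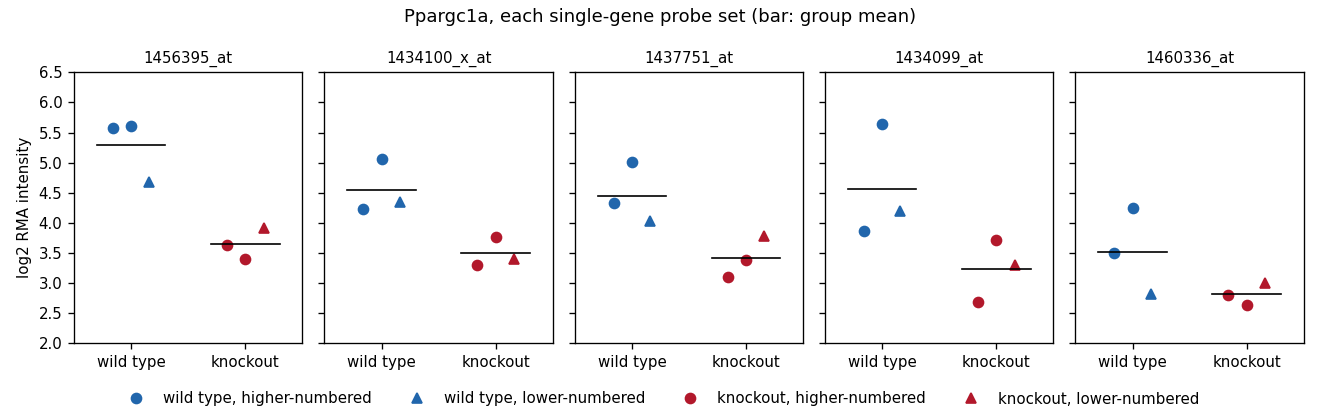
Log2 intensity of the 5 probe sets of Ppargc1a on the 6 arrays, coloured by genotype, with bars at the means and triangles for the lower series. The KSR2-/- mean is lower on each probe set, by 0.71 to 1.64, and 4 of the 5 show no overlap.

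The related coactivator genes differed from Ppargc1a in size or direction. Ppargc1b, which encodes PGC-1β, was lower by 0.52 in KSR2-/- tissue on the log2 scale, within the overlap of the groups. Pprc1, the third member of the family, read 6.36, 6.83 and 6.99 in wild type and 7.15, 7.67 and 7.49 in KSR2-/-, a difference of 0.71 (limma adjusted p = 0.308). Its groups did not overlap, and the direction was opposite to that of Ppargc1a. The difference between the genes was not tested.

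Prdm16 encodes a zinc finger protein that commits precursor cells to brown and beige fat. Its main probe set read 4.92, 5.18 and 4.62 in wild type and 4.98, 5.63 and 4.66 in KSR2-/- tissue. The groups overlapped throughout, with a difference of 0.19 (SE 0.28, limma adjusted p = 0.867). The 3 other probe sets differed by 0.11, -0.09 and 0.15, also with overlap. Mecom, which encodes its close relative, differed by -0.09.

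Tbx1 encodes a T-box transcription factor used as a marker of beige cells. It read 4.68, 4.36 and 4.39 in wild type and 3.84, 3.79 and 3.93 in KSR2-/- tissue. Every KSR2-/- array was below every wild-type array, and the spread within genotypes was small. The means were 4.48 ± 0.17 and 3.85 ± 0.07 (SD, n = 3 each), a difference of -0.63 (SE 0.16, limma adjusted p = 0.248), and it was -0.71 and -0.47 within the higher and lower series. With log2(value + 16) it was -0.33. All these values lie under the median gene mean of 5.96. They also lie within 2.30 to 6.58, the range read by 18 genes of testis, eye, brain, pancreas and tooth that fat is not known to use, although levels of different probe sets are not on a common scale. Both ends of that range came from the 7 testis genes, all of which read highest on wild-type array 1. Its upper end is thus a reading of that array. The mean of the 18 genes was 4.24 there and 3.51 to 3.80 on the other arrays. The deposited values used here carry no detection call, so a low reading cannot be set apart from background. All readings of the main Ppargc1a probe set lie within 2.30 to 6.58 too. So do the wild-type readings of Otop1 and its 6.29 on KSR2-/- array 3. The same holds for all main readings of Prdm16, Dio2 and Elovl3, and for those of Ucp1 except 7.27 on wild-type array 3. No fold change is therefore given for these genes.

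Dio2 encodes the deiodinase that converts thyroxine to the active hormone T3 inside the cell. The main probe set read 4.95, 4.74 and 4.29 in wild type and 4.97, 4.21 and 4.59 in KSR2-/- tissue, overlapping, with a difference of -0.07 (SE 0.26, limma adjusted p = 0.958). A second probe set disagreed with it. That one read 3.26, 3.81 and 4.02 in wild type and 4.14, 5.64 and 4.14 in KSR2-/-, with every KSR2-/- array above all wild-type arrays and a difference of 0.94. The third differed by 0.05, and the mean over all 3 probe sets was higher in KSR2-/- by 0.31, so the direction for Dio2 depends on the probe set. Dio1, which encodes the liver-type deiodinase, differed by -0.13.

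Elovl3 encodes a fatty acid elongase induced in brown fat by cold. It read 4.25, 3.88 and 4.25 in wild type and 4.17, 3.74 and 3.61 in KSR2-/- tissue. The ranges overlapped, and the difference was -0.29 (SE 0.21, limma adjusted p = 0.667). Other elongases reached higher readings. Elovl6, which lengthens palmitate in the course of fat synthesis, read 11.18, 11.59 and 8.93 in wild type and 6.45, 7.03 and 9.55 in KSR2-/-. KSR2-/- minus wild type was thus -4.65 in the higher series and 0.61 in the lower pair, for a difference of -2.89 (SE 0.96, limma adjusted p = 0.314). Elovl1, an elongase of saturated very long chains, was higher by 0.78 without overlap.

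Otop1 encodes a proton channel named after its role in the ear's otoconia and listed among brown fat markers. It read 4.65, 5.33 and 4.89 in wild type. On KSR2-/- arrays 1, 2 and 3 it read 7.24, 6.99 and 6.29. All KSR2-/- values lay above all wild-type values, with KSR2-/- array 3 the nearest to them. The means were 4.96 ± 0.34 and 6.84 ± 0.49 (SD, n = 3 each), a difference of 1.89 (SE 0.29, limma adjusted p = 0.174). The difference was 2.13 in the higher series and 1.40 in the lower pair. Without KSR2-/- array 3 it was 2.16 with a limma adjusted p = 0.00971, and over all leave-one-out fits the limma adjusted p ran from 0.00971 to 0.685. Otop2 and Otop3, the other otopetrin genes, differed by -0.03 and 0.04. They read only 2.86 to 3.26 and 3.21 to 3.55, within the 2.30 to 6.58 of the reference genes. Such readings cannot be set apart from background.

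The mean of the macrophage markers was highest on KSR2-/- arrays 1 and 2, as Otop1 did. The mean log2 level of 12 macrophage genes was 8.12, 8.29 and 8.37 in wild type and 10.07, 10.26 and 8.66 in KSR2-/- tissue. Of the 12, 11 had a higher KSR2-/- mean, and 7 were higher without overlap, beside 7.72% of all genes. With all 6 arrays 0 of the 12 passed limma's adjusted threshold, and 8 were higher at an unadjusted p under 0.05, beside 6.71% of all genes. With KSR2-/- array 3 left out, 8 of the 12 passed the adjusted threshold, beside 4.49% of all genes. The part of macrophage content in the Otop1 difference was not tested. The mean of 10 adipocyte genes was 11.82, 12.11 and 11.97 in wild type and 11.31, 11.47 and 12.19 in KSR2-/-, which brackets the wild-type values.

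Kcnk3 encodes TASK-1, a two-pore potassium channel enriched in brown adipocytes. It read 6.65, 6.90 and 6.70 in wild type and 6.27, 6.75 and 7.44 in KSR2-/- tissue. KSR2-/- array 3 was the highest of all and array 1 the lowest, so the groups overlapped, with a difference of 0.07 (SE 0.30, limma adjusted p = 0.966). KSR2-/- minus wild type was -0.27 in the higher series and 0.74 in the lower pair, with an interaction of 1.01 (limma adjusted p = 0.945). The other probe sets of Kcnk3 differed by -0.21 and 0.17. Among its relatives, Kcnk2 (TREK-1) was lower by 0.64 on the log2 scale without overlap (limma adjusted p = 0.275), and Kcnk6 was higher by 0.69 with overlap.

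Cox8b encodes the muscle and brown fat form of subunit 8 of cytochrome c oxidase, the last complex of the respiratory chain. It read 9.51, 10.97 and 10.31 in wild type. In KSR2-/- tissue it read 7.95, 8.67 and 8.97. The highest KSR2-/- array lay below the lowest wild-type array. The means were 10.26 ± 0.73 and 8.53 ± 0.52 (SD, n = 3 each), so KSR2-/- was lower by 1.73 on the log2 scale (SE 0.41, limma adjusted p = 0.240), or 3.32-fold, and the difference was -1.93 and -1.34 within the higher and lower series. Cox8a, the form present in most tissues, read 11.61, 11.19 and 11.12 in wild type and 10.73, 10.22 and 10.98 in KSR2-/-, lower by 0.66 without overlap (SE 0.24, limma adjusted p = 0.360). The log2 ratio of Cox8b to Cox8a was -2.10, -0.22 and -0.81 in wild type and -2.77, -1.55 and -2.00 in KSR2-/-. Its difference of -1.07 was not beyond the spread (two-sided exact permutation p = 0.3, where 3 against 3 cannot give less than 0.1). It ran from -1.59 without wild-type array 1 to -0.66 without wild-type array 2.

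Cox7a1 encodes the corresponding muscle and brown fat form of subunit 7a. It read 5.16, 7.01 and 7.77 in wild type and 5.42, 6.45 and 7.13 in KSR2-/- tissue. Array 3 was the highest and array 1 the lowest in both genotypes, and the groups overlapped. The difference between genotypes was -0.31 (SE 0.71, limma adjusted p = 0.921). Between the series it was 1.44 (limma adjusted p = 0.756), in the direction of Ucp1. Cox7a2, the form present in most tissues, differed by -0.44 (limma adjusted p = 0.571), and the log2 ratio of Cox7a1 to Cox7a2 differed by 0.13 (two-sided exact permutation p = 1). Cox7a1 and Cox8b are often read as a pair of brown fat markers, yet their order over the 6 arrays was only partly alike. Cox8b was higher in every wild-type mouse than in any KSR2-/- mouse, while Cox7a1 overlapped. Cox7a1 was highest in mouse 3 of both genotypes, and Cox8b in mouse 3 of KSR2-/- and mouse 2 of wild type. Mouse 1 was the lowest of each genotype for both genes.

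Of 29 family relatives of these genes, 25 were measured, 18 with a lower and 7 with a higher KSR2-/- mean. None passed limma's adjusted threshold. At an unadjusted p under 0.05, 4 were lower (Ucp3, Kcnk2, Elovl6 and Cox8a) and 2 higher (Pprc1 and Elovl1), beside 5.38% and 6.71% of all genes. Ucp3, an uncoupling protein homologue of muscle and brown fat, had the most separated genotypes of them. It read 7.22, 7.45 and 7.05 in wild type and 5.95, 6.11 and 6.44 in KSR2-/-, a difference of -1.08 (SE 0.19, limma adjusted p = 0.193). Unlike Ucp1, it showed no overlap. Mouse 3 had the highest reading in KSR2-/-, as for Ucp1, but the lowest in wild type. When KSR2-/- array 3 was left out, 2 of the 25 passed, beside 4.49% of all genes. These were Ucp3 at a limma adjusted p = 0.0284 and Elovl6 at 0.0497. Ucp2 and 3 other relatives are not analysed here.

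**Figure D4:**
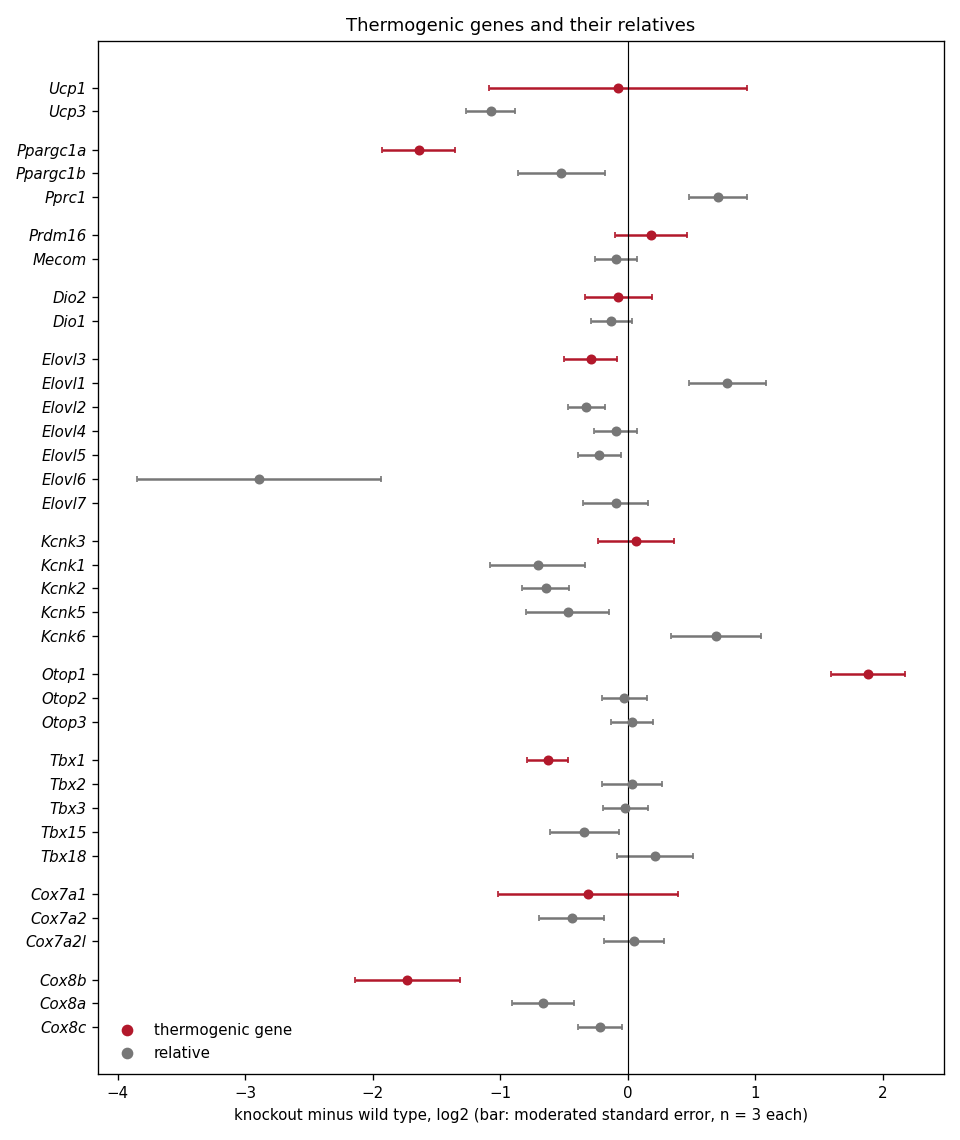
KSR2-/- minus wild type, in log2 units, for the 10 thermogenic genes and the 25 measured relatives of their families, with bars of 1 standard error. Otop1 lies at 1.89, and Otop2 and Otop3, which read low on all arrays, lie at -0.03 and 0.04. Ppargc1a (-1.64) and Pprc1 (0.71) lie on opposite sides of 0.

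Each thermogenic gene was also set against the mean of the 10 adipocyte genes on the same array, as a log2 ratio. Of the 10 ratios, 2 were lower and 2 higher in KSR2-/- tissue without overlap, beside 2.32% and 7.74% of all genes (10.1% in both directions). Each of these 4 had the two-sided exact permutation p = 0.1 that is the smallest 3 against 3 can give. Relative to the adipocyte genes, Ppargc1a differed by -1.33 and Cox8b by -1.42. Otop1 differed by 2.19 and Kcnk3 by 0.38. The Kcnk3 levels themselves overlapped and differed by 0.07. The adipocyte mean was 11.82 to 12.11 in wild type and 11.31, 11.47 and 12.19 on KSR2-/- arrays 1, 2 and 3, so these ratios also carry its changes. The Kcnk3 ratios overlapped with the mean of all probe sets (exact permutation p = 0.3) and after a further quantile normalization (exact permutation p = 0.2). The Ppargc1a ratios overlapped with log2(value + 16), where they differed by -0.66 (exact permutation p = 0.2). The Tbx1 ratios differed by -0.32 with overlap (exact permutation p = 0.5), although its levels did not overlap.

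The transcription factors and signals that set up brown fat were followed with a list of 33 genes, of which 31 were measured, 20 with a lower and 11 with a higher KSR2-/- mean. By limma 0 passed the adjusted threshold, and at an unadjusted p under 0.05 there were 4 lower genes and 1 higher gene, beside 5.38% and 6.71% of all genes. Klb encodes β-klotho, the coreceptor for FGF21, a hormone that can induce beige cells. It read 9.07, 9.86 and 9.14 in wild type and 6.11, 7.40 and 8.70 in KSR2-/-, lower by 1.95 without overlap (SE 0.61, limma adjusted p = 0.301). Ebf2, an early brown fat transcription factor gene, and Bmp7, a secreted inducer of brown fat, were lower by 0.79 and 0.49. Nrip1, which encodes a repressor of Ucp1, was lower by 1.01 with overlap. The 1 higher gene was Tle3, a corepressor gene, at 0.47 (limma adjusted p = 0.396). Without KSR2-/- array 3, 2 of the 31 passed the adjusted threshold, beside 4.49% of all genes. These were Klb and Nrip1 (limma adjusted p = 0.0294 and 0.0490).

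For the adrenergic and thyroid signals upstream of Ppargc1a, Dio2 and Ucp1, 22 of 28 genes were measured, 10 with a lower and 12 with a higher KSR2-/- mean. The median difference was 0.07, and by limma 0 passed the adjusted threshold and at an unadjusted p under 0.05 there were 2 lower genes and 0 higher, beside 5.38% and 6.71% of all genes. Pde3b encodes the insulin-activated phosphodiesterase that breaks down cAMP in adipocytes. It read 11.42, 11.64 and 11.54 in wild type and 10.36, 10.73 and 10.83 in KSR2-/-, lower by 0.89 without overlap (SE 0.18, limma adjusted p = 0.197), and was the 1 gene of the list whose groups did not overlap. Its limma adjusted p without KSR2-/- array 3 was 0.0489, and it was the 1 gene of the 22 to pass there, beside 4.49% of all genes. Thra, the thyroid hormone receptor α gene, was lower by 0.76, and Rxrg, its retinoid partner, by 0.56. Adcy3, an adenylyl cyclase that makes cAMP, was higher by 0.46. The β-adrenoceptor genes are not analysed here.

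The genes most like each thermogenic gene over the 6 arrays were found by the root mean square difference of log2 values after each gene was centred on its own mean, among genes at or above the median gene mean. The nearest to Ucp1 were Krt8 (0.36), Wfdc18 (0.42) and Krt7 (0.54), of which Krt8 and Krt7 are keratins of simple epithelia. The nearest to Ppargc1a were Sfxn1 (0.22), a mitochondrial serine carrier gene, Enpep (0.24), which encodes a membrane aminopeptidase, and Car13 (0.25), a carbonic anhydrase gene. For Otop1 they were Lrg1 (0.24), a secreted glycoprotein gene, Fam20c (0.25) and Emp3 (0.25). Cox8b lay nearest to Ccdc69, Ppp1r1a and Sox6os, Cox7a1 to Hoxa9, Sbsn and Dpp4, and Tbx1 to Ggt5, Ikzf2 and Neil1. Kcnk3 lay nearest to Rab1b, Rnf10 and Adcy6, Prdm16 to Fkbp5, N4bp2 and Herc6, Dio2 to Mdp1, Ap5s1 and 1700036A12Rik, and Elovl3 to Zbtb44, Prrg1 and Lrrc61. No gene was nearest to more than 1 of the 10, and likeness over 6 arrays describes these arrays alone.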

How the data were processed

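Total RNA from white adipose tissue of 6 mice was hybridised to 1 Affymetrix array each. The deposited values are intensity summaries per probe set, made by the authors with RMA per the submitters' processing notes (version not given in the sources used here). They are on a linear scale (lowest value 2.96), although RMA usually ends in log2, so log2 was taken here with nothing added. The array medians ran from 22.4 to 24.2, and the number of arrays limits the precision. Of 45101 probe sets, 64 controls were removed, 34945 had 1 gene, 932 several and 9160 none, and only those with 1 gene were used. Symbols were updated through RefSeq, which matched 34741. The probe set with the highest mean stood for each of 18193 genes.

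KSR2-/- was compared with wild type with limma 3.58.1 (R 4.3.3), with lmFit and eBayes and prior degrees of freedom of 3.06, and Benjamini-Hochberg adjustment over all genes at 0.05. Fits were tested on simulated data. Ratios used two-sided exact permutation tests. The labels do not say how mice were housed or bred, so p-values measure the spread between these 6 samples. Marker and pathway means are means of log2 values over the measured genes of a list. The genes and lists were chosen with earlier results of these data known. Named were all 10 genes and their relatives, up to 4 genes per other list by unadjusted p, marker genes that moved with a result, chosen after their values were seen, and the 3 nearest genes to each of the 10. Alternatives were a filter on low genes, quantile and centred scaling, log2(value + 16), the mean of all probe sets, a mean-variance trend, the series as a block, a Gapdh covariate, each array left out, and the higher series alone, the last added after the data were seen. The check of motifs used upstream windows trimmed to the 250 bases before the start.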

Additional observations from a re-analysis of the deposited data

How the results depend on the processing

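Ppargc1a, Elovl3, Tbx1 and Cox8b stayed lower and Otop1 higher in KSR2-/- tissue under every setting run for them, though with log2(value + 16) Ppargc1a was -0.96 and Tbx1 -0.33. The count of all genes past limma's adjusted threshold, 1 as reported, was 12 with the low filter, 2 with quantile scaling, 16 centred, 0 with log2(value + 16), 10 with a mean-variance trend, 0 with the series as a block, 6 with the Gapdh covariate, 0 over every probe set, 487 in the higher series alone and 0 to 816 with 1 array left out. Of the 10 thermogenic genes, 2 passed in the higher series alone, with Ppargc1a at -2.07 and Otop1 at 2.13, and 0 to 2 passed with 1 array left out. There Ppargc1a ran from -1.94 to -1.48, Otop1 from 1.69 to 2.16 and the median of the 10 from -0.45 to -0.061. For the directions that turned, the cause was not tested. Dio2 was 0.31 with the mean of all probe sets, Kcnk3 -0.024 with quantile scaling and -0.27 in the higher series alone, Ucp1 0.54 and Cox7a1 0.059 with the Gapdh covariate, and Ucp1 0.40 in the higher series alone. As ratios to the adipocyte genes, Elovl3 was -0.020 with the mean of all probe sets and Cox7a1 0.0024 with log2(value + 16). With 1 array left out, Ucp1 ran from -0.75 to 1.08, Prdm16 from -0.085 to 0.40, Dio2 from -0.26 to 0.12, Kcnk3 from -0.24 to 0.35, Cox7a1 from -1.06 to 0.25 and the Cox7a1 to Cox7a2 ratio from -0.46 to 0.64. The ratios to the adipocyte genes ran from -0.40 to 1.38 for Ucp1, -0.13 to 0.50 for Dio2, -0.32 to 0.40 for Elovl3 and -0.68 to 0.55 for Cox7a1. The trend, block, Gapdh covariate and higher-series settings were not run for the ratios. No paired analysis was possible because the labels hold no shared replicate numbers. Signal over background limits the low genes, since no detection call was used.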

Other observations

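Thermogenic genes beyond the 10 included large differences in both directions. Of 36 such genes 33 were measured, 18 with a lower and 15 with a higher KSR2-/- mean. By limma 0 passed the adjusted threshold, and at an unadjusted p under 0.05 there were 7 lower genes and 5 higher, beside 5.38% and 6.71% of all genes. Cidea, which encodes a lipid droplet protein abundant in brown fat, read 8.48, 9.21 and 8.11 in wild type and 4.45, 4.93 and 7.23 in KSR2-/- tissue. All 3 KSR2-/- values were lower, by 3.07 on average (SE 0.70, limma adjusted p = 0.229), and the difference was -4.16 in the higher series and -0.88 in the lower pair. Nrg4, a secreted factor gene of brown fat, was lower by 1.09 (limma adjusted p = 0.210). Hspb7, a small heat shock protein gene, read 5.39, 5.00 and 5.53 in wild type and 7.05, 7.05 and 8.50 in KSR2-/-, higher by 2.23 (SE 0.41, limma adjusted p = 0.194), with KSR2-/- array 3 the highest. Ryr2, a calcium release channel gene, was higher by 0.76 (limma adjusted p = 0.217). It read only 2.43, 2.66 and 2.77 in wild type and 3.25, 3.33 and 3.57 in KSR2-/-. Readings this low cannot be set apart from background. Without KSR2-/- array 3, 6 of the 33 genes passed limma's adjusted threshold, Cidea, Hspb7, Nrg4, Gatm, Ckb and Mtus1, beside 4.49% of all genes.

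Of 7 genes of the creatine cycle, a heat-producing route that does not need UCP1, 4 had higher KSR2-/- means, beside 8080 of all 18193 genes. Ckmt1, Ckmt2 and Alpl differed by -0.19, -0.017 and -0.010. Ckb, which encodes the brain-type creatine kinase used in that cycle, read 8.63, 8.63 and 8.83 in wild type and 10.26, 10.26 and 9.15 in KSR2-/-, a difference of 1.20 without overlap (limma adjusted p = 0.248). The creatine synthesis genes Gatm and Gamt were higher by 1.06 and 0.57 with overlap (limma adjusted p = 0.376 and 0.637). The creatine transporter gene Slc6a8 was higher by 1.05, also with overlap (limma adjusted p = 0.442). In the lower pair Gatm, Gamt and Slc6a8 differed by 0.33, 0.79 and -0.20. The creatine cycle genes were singled out after their values were seen. Ckb, Gatm and Slc6a8 read higher on KSR2-/- arrays 1 and 2 than on array 3, as did the mean of the 12 macrophage genes (10.07, 10.26 and 8.66), whose part in these values was not tested. Fabp3, a fatty acid binding protein gene of muscle and brown fat, read 3.80, 4.50 and 7.29 in wild type and 4.49, 4.91 and 5.47 in KSR2-/-, highest on wild-type array 3 as Ucp1 was.

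Of 12 white-selective genes, 9 had a lower and 3 a higher KSR2-/- mean, and by limma 0 passed the adjusted threshold, while an unadjusted p under 0.05 was reached by 2 lower genes and 1 higher gene, beside 5.38% and 6.71% of all genes. Agt was lower by 2.04 (limma adjusted p = 0.193) and Retn, which encodes resistin, by 1.23 (limma adjusted p = 0.325). Lep, the leptin gene, was higher by 1.45 (limma adjusted p = 0.380). Without KSR2-/- array 3, 2 of the 12 passed limma's adjusted threshold, beside 4.49% of all genes. These were Agt and Retn, and Lep did not pass. All 7 testis genes of the reference list read highest on wild-type array 1, with a mean of 4.62 there and 3.22 to 3.51 on the other arrays.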
